A study of Mus musculus with 8 samples.

Results

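The genes described here make cholesterol from acetyl units, sense sterol in the endoplasmic reticulum, and move or export sterol. They were taken as 29 named genes, and each was read from the probe set annotated with that symbol alone; where a gene had several such probe sets, the one with the highest mean over the 8 arrays was used. Of the 29 genes, 28 were measured among 19938 genes in all. Acat2, whose enzyme makes acetoacetyl-CoA at the start of the route, was not analysed here. The 28 comprise 6 mevalonate-route enzymes, 11 squalene and sterol-ring enzymes, 5 sterol-sensing genes, and 6 genes of sterol transport and receptor turnover.

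RNA came from 3134 cells, a mouse mammary line of RIII origin, hybridised to 8 arrays, with 2 arrays in each of 4 groups. All 8 samples carried a transgene for A-fos, a dominant negative form that blocks the AP-1 transcription factor, together with the tetracycline regulator tTA, and all had been kept for 48 h in charcoal-treated serum. The groups were 0 h controls and 4 h of 100 nM dexamethasone, a synthetic glucocorticoid, each titled either "no tetracycline" or "plus tetracycline" (1 ug per ml where tetracycline is named). In a Tet-Off line the transgene is on when tetracycline is absent. The treatment text gives every sample the tetracycline state opposite to its title. Samples are named by their titles throughout, as the no-titled arm or the plus-titled arm, and the labels leave unsettled in which arm A-fos was on. Whether the line is 1 clone, and whether the arrays of a group came from separate cultures, is not stated.

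Cells make cholesterol when their membranes run short of it. The transcription factor SREBP-2, product of Srebf2, is then carried by Scap from the endoplasmic reticulum to the Golgi, cut free, and turns on nearly every enzyme of the route; when sterol is plentiful, Insig proteins hold Scap back. Insig1 is itself a target of this factor, whereas the exporters Abca1 and Abcg1 and the ubiquitin ligase Mylip, which marks lipoprotein receptors for breakdown, are known targets of the oxysterol-sensing LXR receptors.

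Promoters are shown because most members were higher in the plus-titled arm, and so that their letters can be set beside the values. From the RefSeq table for GRCm38.p6, 22 of the 28 measured genes had a window, 30 windows in all. Each window ends at the base before the gene's start. Both strands were searched for TCACNCCAC, a strict form of the sterol regulatory element, for the CCAAT box, for the GC box GGGCGG, for the AP-1 motif TGANTCA, and for a palindromic glucocorticoid receptor motif. The 3 windows below cover the 250 bases before the start of Hmgcs1 (chr13:119690101-119690350, plus strand), Insig1 (chr5:28071162-28071411, plus strand) and Lss (chr10:76531355-76531604, plus strand). Capitals mark a sterol regulatory element or a CCAAT box on either strand (ATTGG is the CCAAT box read on the other strand).
Hmgcs1: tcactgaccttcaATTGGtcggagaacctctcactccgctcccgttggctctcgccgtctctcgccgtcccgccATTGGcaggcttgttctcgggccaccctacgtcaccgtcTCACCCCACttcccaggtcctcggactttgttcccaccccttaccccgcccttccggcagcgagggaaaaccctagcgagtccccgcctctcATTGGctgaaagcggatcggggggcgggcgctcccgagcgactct
Insig1: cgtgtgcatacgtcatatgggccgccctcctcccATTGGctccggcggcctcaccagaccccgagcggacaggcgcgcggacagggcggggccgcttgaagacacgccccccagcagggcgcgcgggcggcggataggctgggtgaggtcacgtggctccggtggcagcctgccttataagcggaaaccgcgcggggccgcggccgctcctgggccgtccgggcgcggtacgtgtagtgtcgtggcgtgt
Lss: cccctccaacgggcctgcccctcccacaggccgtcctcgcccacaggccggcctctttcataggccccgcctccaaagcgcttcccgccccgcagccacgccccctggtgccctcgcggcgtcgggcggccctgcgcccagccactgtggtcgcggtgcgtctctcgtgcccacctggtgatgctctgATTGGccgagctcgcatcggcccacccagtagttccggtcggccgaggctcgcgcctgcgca

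Of the 22 members with a window, Hmgcs1 alone held the strict sterol element, as TCACCCCAC from 137 to 129 bases before the start, and it held 3 CCAAT boxes. Insig1 and Lss, printed as the members with the largest differences among those without the strict element, had 1 CCAAT box each. The strict element was in 1 of 30 member windows (3.33%) and in 1.053% of the 32851 windows of all genes. The CCAAT box was in 21 of the 30 (70.0%), against 33.85% of all windows. The GC box was in 24 of the 30 (80.0%), against 32.74%. The AP-1 motif was in 2 of the 30 (6.67%, Dhcr7 and Msmo1), against 6.75%, and the glucocorticoid receptor motif was in 0 of the 30, against 0.387%. No listed motif overlapped another in the 3 printed windows. These are matches of letters in a short window and carry no test.

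Cholesterol-route genes were higher in the plus-titled arm both without and with hormone. At 0 h, 20 of the 28 measured members were higher in the plus-titled arm and 0 were lower, with a median difference of 0.68 on the log2 scale. Across all genes tested the called shares were 6.2% higher and 3.18% lower, with a median of -0.02. At 4 h of dexamethasone, 17 of the 28 were higher and 0 were lower, with a median of 0.57, beside 5.29% higher, 4.32% lower and a median of -0.01 over all genes. In bulk RNA, fewer cells of a type and less RNA per cell cannot be told apart. Differences are plus-titled minus no-titled, and where pairs of array values are set against each other the no-titled pair comes first. A gene was called at a Benjamini-Hochberg adjusted p under 0.05 over all 19938 genes.

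**Figure D1:**
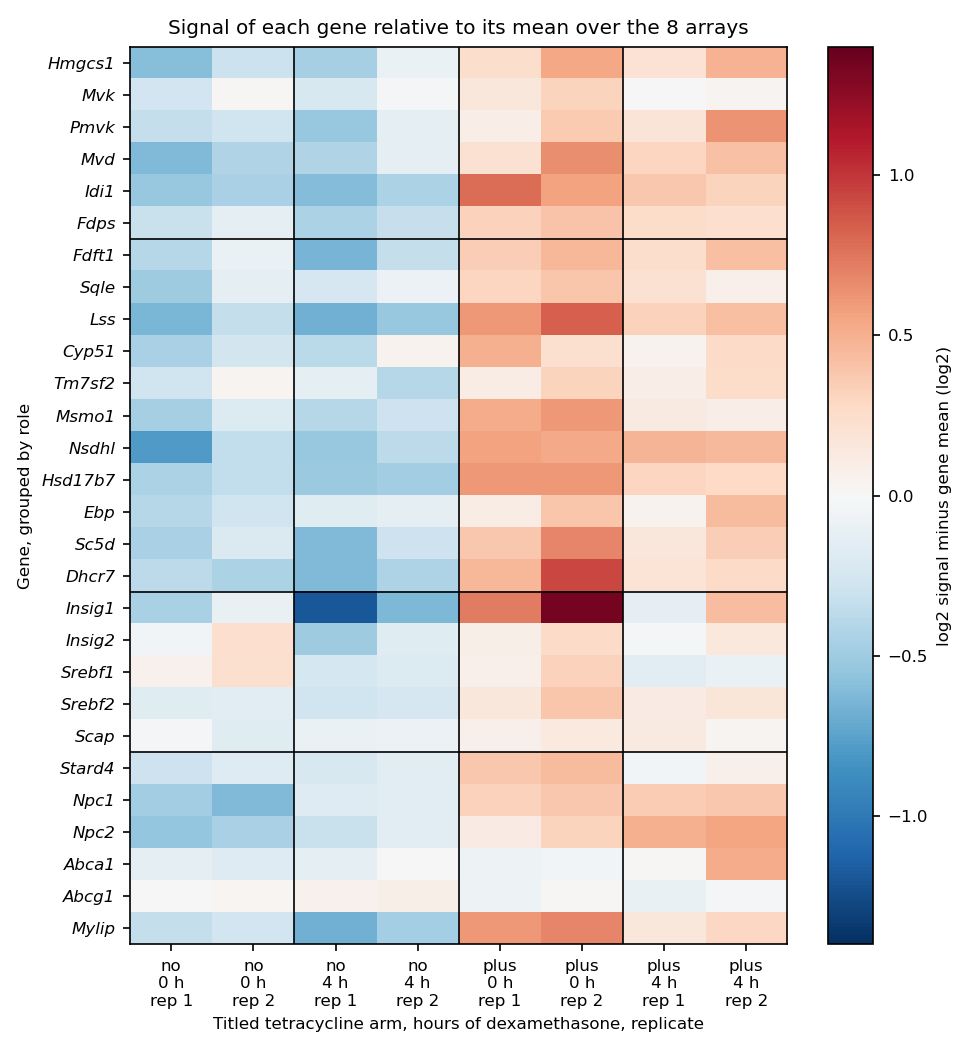
Each row is 1 of the 28 measured genes, grouped by role, and each column is 1 of the 8 arrays; the colour is the log2 value minus the gene's mean over the 8 arrays. Rows such as Lss, Idi1 and Hsd17b7 are higher in all 4 plus-titled arrays than in all 4 no-titled arrays, while Abca1 and Abcg1 show little contrast between the arms.

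Among the mevalonate-route enzymes, 4 of 6 were called at 0 h (median 0.71) and 5 of 6 at 4 h (median 0.63). Idi1 isomerises the basic isoprenoid unit. Its log2 values were 8.38 and 8.46 in the no-titled 0 h arrays, 8.30 and 8.46 in the no-titled 4 h arrays, 9.69 and 9.48 in the plus-titled 0 h arrays, and 9.29 and 9.22 in the plus-titled 4 h arrays. All 4 plus-titled values lay above all 4 no-titled ones. Idi1 was 2.24-fold higher at 0 h (1.16 ± 0.12 log2, SE, n = 2 per group, adjusted p = 0.00043) and 0.87 ± 0.12 higher at 4 h (adjusted p = 0.00152). Its second probe set gave 1.13 and 0.79.

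Hmgcs1, which makes HMG-CoA, read 8.98 and 9.28 without hormone in the no-titled arm, against 9.83 and 10.12 in the plus-titled arm. At 4 h it read 9.11 and 9.48 against 9.78 and 10.06. It was higher in the plus-titled arm by 0.84 ± 0.17 (adjusted p = 0.0119) and 0.62 (adjusted p = 0.043). Mvd, which makes isopentenyl diphosphate, was higher by 0.95 ± 0.16 at 0 h (adjusted p = 0.00505) and 0.63 at 4 h (adjusted p = 0.0325). Fdps, which builds farnesyl diphosphate, was higher by 0.58 ± 0.11 (adjusted p = 0.00944) and 0.62 (adjusted p = 0.00617). The kinase Pmvk was called at 4 h (0.74 ± 0.18, adjusted p = 0.0238) and not at 0 h (0.54, adjusted p = 0.0873). Neither status was stable: with the 4 arrays of each comparison alone, Pmvk passed at 0 h (adjusted p = 0.0438) and not at 4 h (adjusted p = 0.0522), and its 4 h call was also lost without replicate 1 of the no-titled 4 h group (adjusted p = 0.182) or replicate 2 of the plus-titled 4 h group (adjusted p = 0.187). The first kinase, Mvk, was called at neither time (0.36, adjusted p = 0.123 at 0 h, and 0.14, adjusted p = 0.61 at 4 h).

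The squalene and sterol-ring enzymes were called for 10 of 11 genes at 0 h (median 0.86) and 7 of 11 at 4 h (median 0.70). Lss, which closes the sterol rings, read 7.88 and 8.18 in the no-titled 0 h arrays and 9.12 and 9.35 in the plus-titled ones. At 4 h it read 7.85 and 7.99 against 8.84 and 8.94. The arms did not overlap at either time, and Lss was 2.31-fold higher at 0 h (1.21 ± 0.14, adjusted p = 0.00076) and 0.97 ± 0.14 higher at 4 h (adjusted p = 0.00179).

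Nsdhl and Hsd17b7 remove methyl groups and reduce the ketone on the sterol. Nsdhl read 8.37 and 8.82 without hormone in the no-titled arm, against 9.73 and 9.69 in the plus-titled arm, and 8.63 and 8.79 against 9.64 and 9.62 at 4 h. It was higher by 1.11 ± 0.14 at 0 h (adjusted p = 0.0014) and 0.92 at 4 h (adjusted p = 0.00334). Hsd17b7 read 7.61 and 7.70 against 8.66 and 8.65 at 0 h, and 7.53 and 7.56 against 8.35 and 8.32 at 4 h. It was higher by 1.00 ± 0.10 at 0 h (adjusted p = 0.00046) and 0.79 ± 0.10 at 4 h (adjusted p = 0.0013), and its 4 plus-titled values were above every no-titled value. Dhcr7, a reductase of a late step, read 8.13 and 8.05 against 8.96 and 9.42 at 0 h. It was higher by 1.10 ± 0.15 (adjusted p = 0.00164), and by 0.75 at 4 h (adjusted p = 0.0104). 

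Msmo1, a sterol methyl oxidase, was higher by 0.89 ± 0.12 at 0 h (adjusted p = 0.00164) and 0.45 at 4 h (adjusted p = 0.038). The other ring steps, Sqle, Cyp51, Ebp, Fdft1 and Sc5d, had 0 h differences from 0.58 to 0.86. Sqle, which oxidises squalene, and Cyp51, which removes a methyl group from the ring, were called at 0 h (0.66, adjusted p = 0.0131, and 0.71, adjusted p = 0.0212), as was the isomerase Ebp (0.58, adjusted p = 0.0327). At 4 h these 3 had differences of 0.30, 0.32 and 0.40, with adjusted p of 0.22, 0.283 and 0.128. Fdft1, which makes squalene, read 8.67 and 8.98 against 9.42 and 9.54 at 0 h, and 8.42 and 8.74 against 9.32 and 9.49 at 4 h, and was higher by 0.65 ± 0.15 (adjusted p = 0.0198) and 0.83 ± 0.15 (adjusted p = 0.00611). The second probe set of Fdft1 gave 0.67 and 0.68, beside the values of the first. Sc5d, a sterol desaturase, was higher by 0.86 ± 0.16 (adjusted p = 0.00703) and 0.70 (adjusted p = 0.0173). Tm7sf2, a reductase of the ring, was called at neither time (0.33, adjusted p = 0.209, and 0.44, adjusted p = 0.0924), but passed at 4 h when the dimmest genes were left out (adjusted p = 0.0407).

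**Figure D2:**
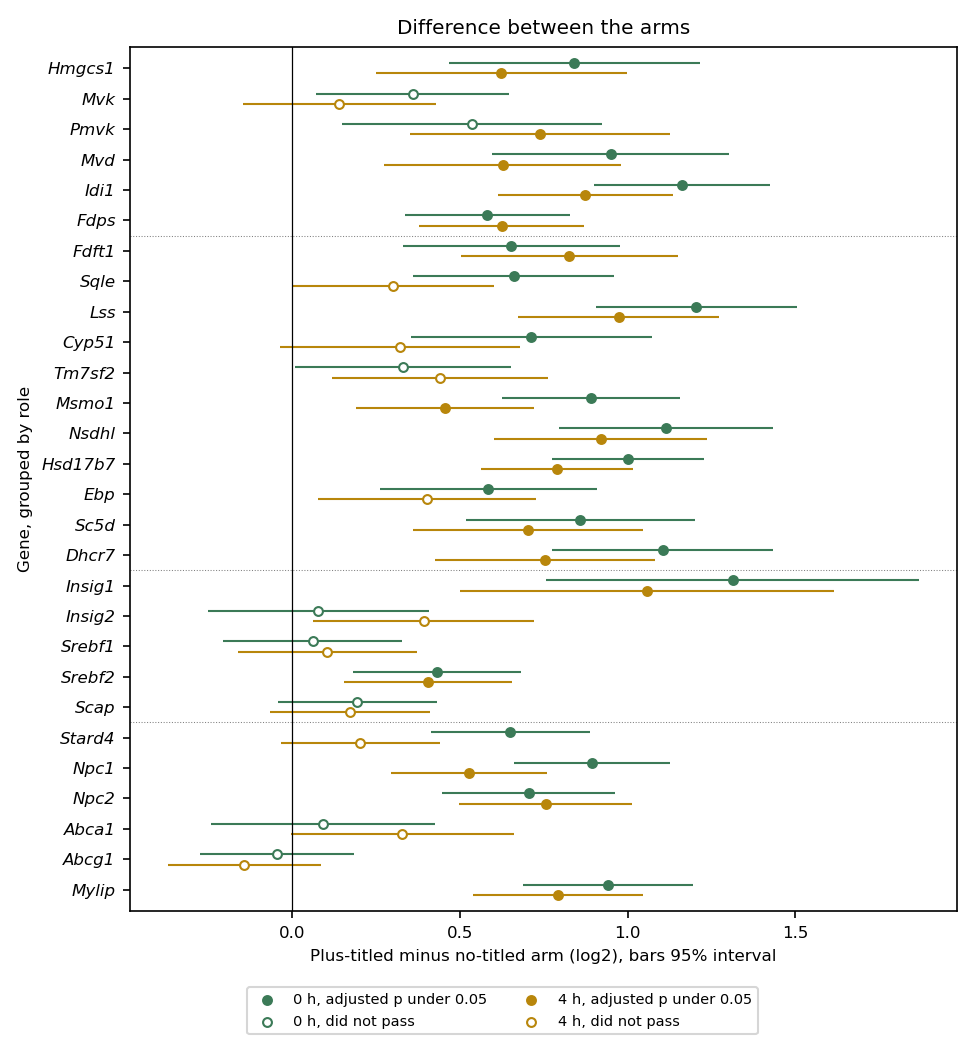
Points are the difference between the plus-titled and no-titled arms in log2 units for each measured gene at 0 h and at 4 h, with unadjusted 95% intervals from the limma model. Insig1 has the highest value at 0 h, 1.31, and Abcg1 lies at -0.05 at 0 h and -0.14 at 4 h.

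Of the sterol-sensing genes, 2 of 5 were called at both times. Insig1, which holds Scap in the endoplasmic reticulum, read 9.28 and 9.63 without hormone in the no-titled arm, against 10.46 and 11.08 in the plus-titled arm. At 4 h the values were 8.55 and 9.11 against 9.60 and 10.17. The plus-titled arm was above the no-titled arm at each time, by 1.31 ± 0.25 (2.49-fold, adjusted p = 0.00954) and 1.06 ± 0.25 (adjusted p = 0.0243). Srebf2 read 9.45 and 9.46 against 9.77 and 10.00 at 0 h, and 9.34 and 9.37 against 9.73 and 9.79 at 4 h. It was higher by 0.43 ± 0.11 (adjusted p = 0.0385) and 0.40 (adjusted p = 0.0491), near the threshold both times. The Srebf2 call was lost in 10 of 17 alternative settings at each time. The Insig1 call was lost at 0 h without replicate 1 of the no-titled group (adjusted p = 0.0795) or replicate 2 of the plus-titled group (adjusted p = 0.0752), and at 4 h without the arrays of the same numbers (adjusted p = 0.177 and 0.186). Insig2, Srebf1 and Scap were not called at either time. Insig2, a second Scap anchor, differed by 0.08 (adjusted p = 0.814) and 0.39 (adjusted p = 0.144), and Scap, the escort itself, by 0.19 (adjusted p = 0.327) and 0.17 (adjusted p = 0.402). Srebf1, whose factor mainly drives fatty acid genes, differed by 0.06 (adjusted p = 0.821) and 0.10 (adjusted p = 0.698).

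Of the transport and turnover genes, 4 of 6 were called at 0 h and 3 of 6 at 4 h. Npc1 and Npc2 carry cholesterol out of lysosomes. Npc1 read 7.51 and 7.37 against 8.31 and 8.36 at 0 h, and 7.81 and 7.85 against 8.34 and 8.36 at 4 h, with differences of 0.89 ± 0.11 (adjusted p = 0.000877) and 0.53 ± 0.11 (adjusted p = 0.011). Npc2 read 8.04 and 8.13 against 8.69 and 8.89, then 8.26 and 8.42 against 9.07 and 9.13, with differences of 0.71 ± 0.12 (adjusted p = 0.00462) and 0.76 ± 0.12 (adjusted p = 0.00305). Both genes had every plus-titled array above every no-titled one. Stard4, a soluble sterol carrier, was called at 0 h (0.65 ± 0.11, adjusted p = 0.00469), and its difference at 4 h was 0.20 (adjusted p = 0.309).

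Of Abca1, Abcg1 and Mylip, the LXR targets named above, 1 was called. Mylip read 7.55 and 7.61 against 8.48 and 8.56 at 0 h, and 7.21 and 7.40 against 8.03 and 8.16 at 4 h, and was higher by 0.94 ± 0.11 (adjusted p = 0.00103) and 0.79 ± 0.11 (adjusted p = 0.00231). Abca1 was dim, from 4.40 to 5.10 over the 8 arrays, and was not called (0.09, adjusted p = 0.783, and 0.33, adjusted p = 0.23). Without replicate 1 of the plus-titled 4 h group its 4 h difference was 0.58 (adjusted p = 0.0413). Abcg1 differed by -0.05 (adjusted p = 0.846) and -0.14 (adjusted p = 0.485).

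**Figure D3:**
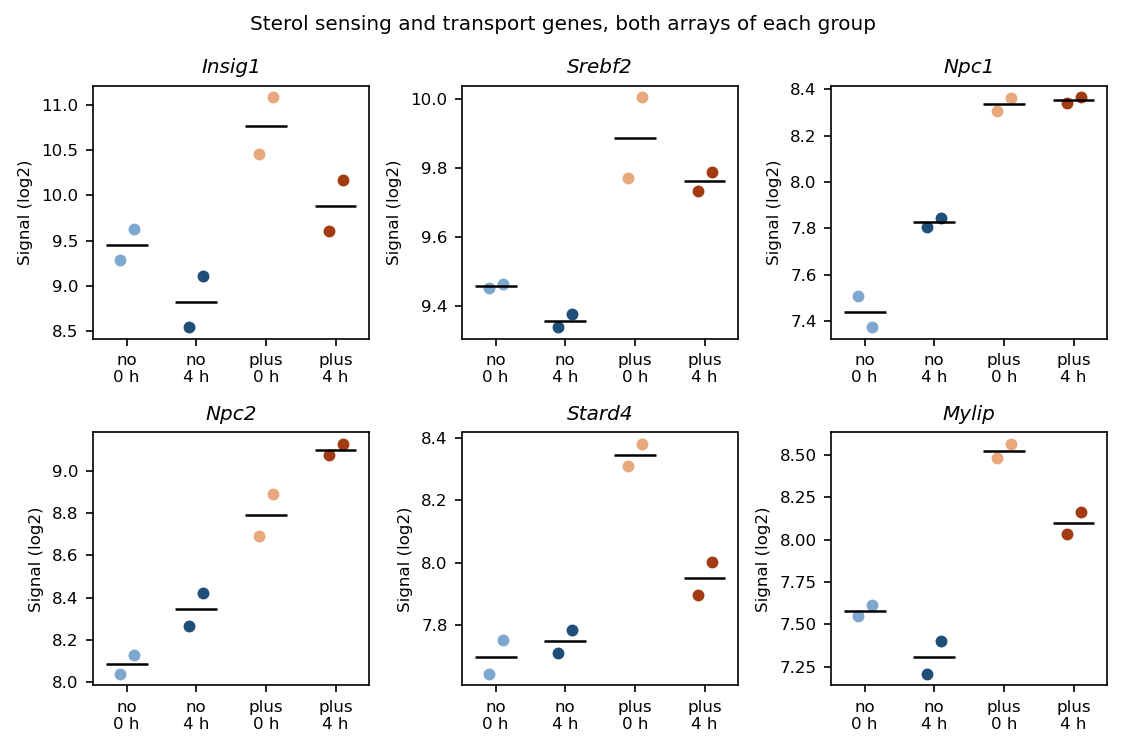
Log2 values of Insig1, Srebf2, Npc1, Npc2, Stard4 and Mylip by group, with 1 point per array and 2 arrays per group. For each of these genes the plus-titled points stand above the no-titled points at the same time. Stard4 at 4 h reads 7.71 and 7.78 in the no-titled arm against 7.90 and 8.00 in the plus-titled arm.

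Read by non-overlap, both plus-titled arrays were above both no-titled arrays for 25 of the 28 members at 0 h and 26 of the 28 at 4 h, where the shares of all genes were 25% and 24.4%. Of the members, 16 were called in both comparisons, which is 80% of the 0 h calls and 94.1% of the 4 h calls. The share of all genes called at both times was not counted. The 0 h and 4 h comparisons used different arrays but 1 estimate of spread per gene from all 8 arrays, so their calls are not independent. In this model Sqle, Cyp51, Ebp and Stard4 passed at 0 h and not at 4 h, and Pmvk at 4 h and not at 0 h. Without replicate 1 of the no-titled 0 h group, 8 of the 20 calls at 0 h were left (2.07% of all genes were then called higher), and without replicate 2 of the plus-titled 0 h group 13 were left (3.99%). Dhcr7, Hsd17b7, Idi1, Lss, Msmo1, Mylip, Npc1 and Nsdhl were called at 0 h whichever of the 8 arrays was left out. At 4 h, 6 calls were left without replicate 1 of the no-titled 4 h group (1.8% of all genes) and 7 without replicate 2 of the plus-titled 4 h group (2.17%), and Hsd17b7, Idi1, Lss, Mylip, Npc2 and Nsdhl were called whichever array was left out.

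Dexamethasone gave 0 calls among the 28 members in either arm in the main limma fit. Over all genes the called shares were for the no-titled arm 1.03% higher and 0.401% lower, and for the plus-titled arm 0.823% higher and 0.281% lower. At an unadjusted p under 0.05 there were 6 members in the no-titled arm (9.1% of all genes), against 10 in the plus-titled arm (9.98% of all genes). The median difference was -0.02 in the no-titled arm, with 15 members below 0, and -0.12 in the plus-titled arm, with 23 below 0; the medians of all genes were 0.01 and -0.01. The no-titled median turned with the array left out: it was 0.03 without replicate 2 and -0.09 without replicate 1 of its 0 h group, and 0.04 without replicate 1 and -0.09 without replicate 2 of its 4 h group. The plus-titled median was -0.22 without replicate 1 and -0.09 without replicate 2 of its 0 h group, and -0.10 without replicate 1 and -0.19 without replicate 2 of its 4 h group. The dexamethasone responses share arrays with the arm comparisons, so they are not independent of them.

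Insig1 had the largest difference with hormone in both arms. The 4 h minus 0 h difference was -0.63 ± 0.25 in the no-titled arm (95% interval -1.19 to -0.07, adjusted p = 0.449) and -0.89 ± 0.25 in the plus-titled arm (-1.44 to -0.33, adjusted p = 0.189), neither of which passed in this model. Both plus-titled 4 h values, 9.60 and 10.17, lay below both 0 h values, 10.46 and 11.08. Insig2 had a difference of -0.43 in the no-titled arm (adjusted p = 0.318) and -0.12 in the plus-titled arm (adjusted p = 0.856). Both no-titled 4 h values of Insig2 lay below both no-titled 0 h values. Npc1 had a difference of 0.39 in the no-titled arm (adjusted p = 0.151), where its values were 7.51 and 7.37 before and 7.81 and 7.85 after. Msmo1 had a difference of -0.45 in the plus-titled arm (adjusted p = 0.147), from 11.18 and 11.27 to 10.79 and 10.76. Stard4 in that arm had -0.40 (adjusted p = 0.161), from 8.31 and 8.38 to 7.90 and 8.00. Mylip was at -0.27 (adjusted p = 0.488) and -0.43 (adjusted p = 0.158) (no-titled arm first), Srebf1 at -0.37 (adjusted p = 0.282) and -0.32 (adjusted p = 0.37), and Npc2 at 0.26 (adjusted p = 0.542) and 0.31 (adjusted p = 0.371), so that each pointed the same way in both arms without passing. Among the synthesis enzymes, 5 had an unadjusted limma p under 0.05 in the plus-titled arm. These were Msmo1, given above, Dhcr7 (-0.47, adjusted p = 0.259), Lss (-0.35, adjusted p = 0.4), Idi1 (-0.33, adjusted p = 0.341) and Hsd17b7 (-0.32, adjusted p = 0.265). With a variance that follows signal and resists outliers, Npc1 was called in the no-titled arm (adjusted p = 0.0491) and Msmo1 in the plus-titled arm (adjusted p = 0.0245). With a replicate block in the limma model, Insig1 was called lower in the no-titled arm (adjusted p = 0.0284) and in the plus-titled arm (adjusted p = 0.00711).

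**Figure D4:**
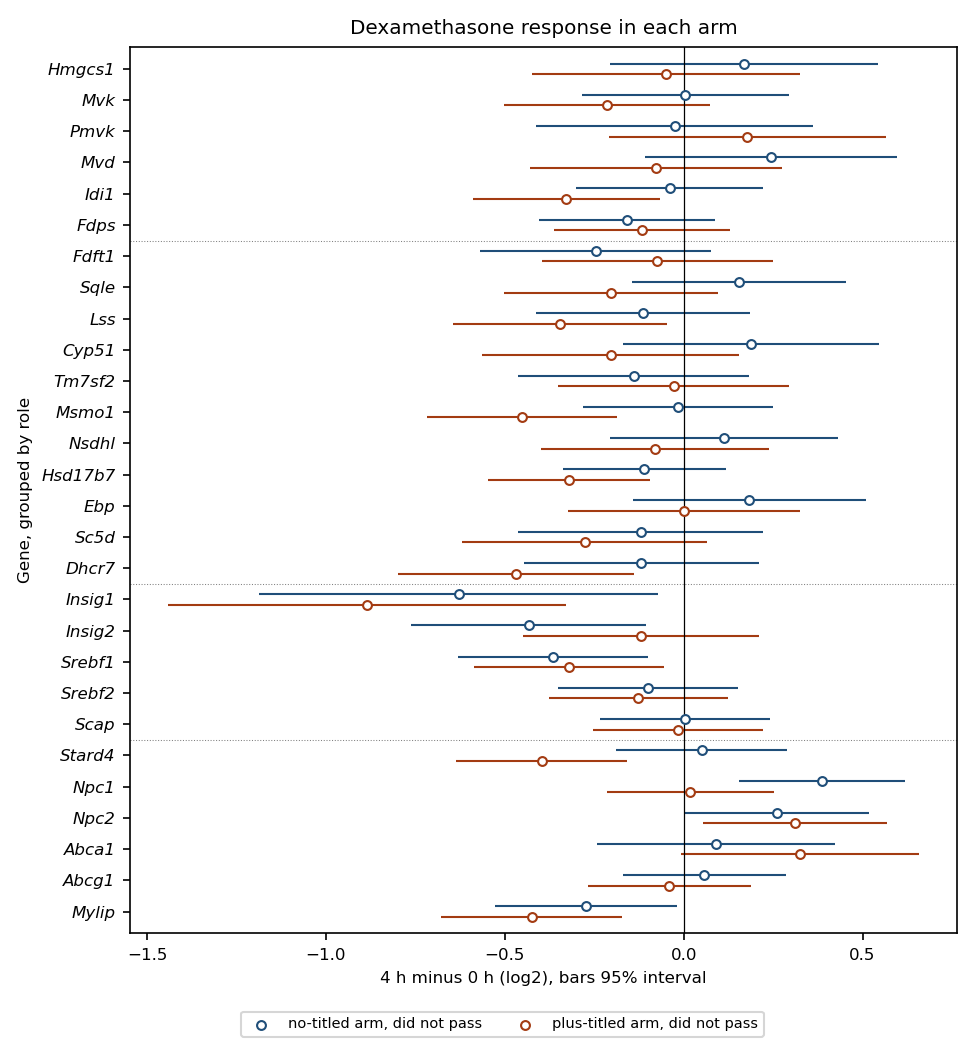
Points are the 4 h minus 0 h difference in log2 units for each gene, with 1 colour per arm and unadjusted 95% intervals from limma. Insig1 is farthest below 0, at -0.63 and -0.89, and none of the 28 genes is called in either arm in the main limma fit.

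No member passed for the difference between the hormone responses (0 of 28, beside 0% of all genes higher and 0.00502% lower), and 3 members had an unadjusted p under 0.05 (5.11% of all genes did). Stard4 was at -0.45 (95% interval -0.78 to -0.11, adjusted p = 0.868), Msmo1 at -0.44 (-0.81 to -0.06, adjusted p = 0.934) and Npc1 at -0.37 (-0.70 to -0.04, adjusted p = 0.953). For these 3 genes the arm difference was 0.20, 0.45 and 0.53 at 4 h and 0.65, 0.89 and 0.89 at 0 h, in that order, and the change did not pass.

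The replicates of a group differed in this set of genes. Replicate 2 was above replicate 1 for 24 of the 28 members in the no-titled 0 h group, 27 in the no-titled 4 h group, 24 in the plus-titled 0 h group and 21 in the plus-titled 4 h group, with median shifts of 0.16, 0.16, 0.14 and 0.09. For 16 members (57.1%) replicate 2 was higher in all 4 groups, against 8.9% of all genes. Insig1 was higher in replicate 2 by 0.35, 0.56, 0.62 and 0.56. The medians over all genes were between -0.02 and 0.03. What the replicate numbers stand for is not stated, and each group holds 1 array of each number, so a shift shared by arrays of 1 number cancels in the differences between groups and adds to their error.

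**Figure D5:**
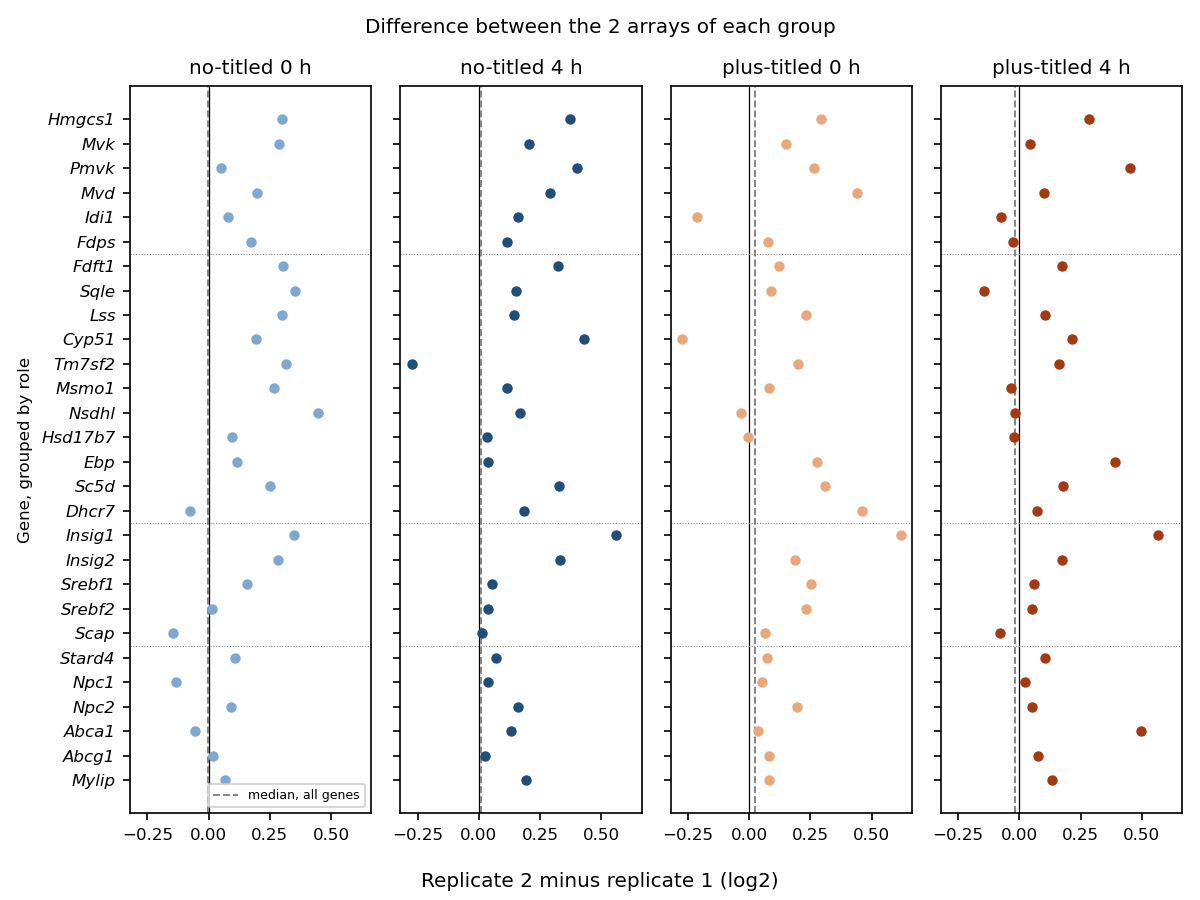
Replicate 2 minus replicate 1 in log2 units within each of the 4 groups, with 1 point per measured member. In each group most points lie above 0 (21 to 27 of 28), while the median of all genes is close to 0.

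Other genes of sterol and lipid metabolism were read in the same comparisons, where 6.2% of all genes were called higher at 0 h and 5.29% at 4 h. Of 4 other synthesis genes, Acss2 and Acly, which supply acetyl-CoA, were higher in the plus-titled arm at 0 h (1.04, adjusted p = 0.00227, and 0.58, adjusted p = 0.00651) and at 4 h (1.14, adjusted p = 0.0013, and 0.47, adjusted p = 0.0173). Of 7 uptake and ester genes, 3 were higher at 0 h and 2 at 4 h, with Lipa, the lysosomal acid lipase, at 1.31 (adjusted p = 0.000674) and 1.34 (adjusted p = 0.000453). Of 10 other intracellular transport genes, 2 were higher at 0 h and 3 at 4 h. Stard5, which binds sterol or bile acid, was higher by 0.91 (adjusted p = 0.00116) and 1.22 (adjusted p = 0.00027), and it rose with dexamethasone in both arms (no-titled 0.56, adjusted p = 0.0395, and plus-titled 0.87, adjusted p = 0.00351). Of 4 other sensing and degradation genes, 1 was higher at 0 h (Erlin2, 0.44, adjusted p = 0.033) and 3 at 4 h. None of the 9 fatty acid synthesis genes, 6 non-sterol isoprenoid genes or 6 other oxysterol and LXR genes passed in either arm comparison by limma. The fatty acid genes had medians of 0.17 and 0.16, with 9 of 9 above 0 at 0 h and 8 of 9 at 4 h. Above 0 were 5 and 3 of the isoprenoid genes, 4 and 3 of the oxysterol genes, and 9245 and 9396 of all 19938 genes. At an unadjusted limma p under 0.05 there were 1 and 3 fatty acid genes at 0 h and at 4 h. At that threshold there were 0 and 3 isoprenoid genes and 0 and 0 oxysterol genes, beside 22.8% and 22.4% of all genes. No gene of these lists was called lower at an adjusted p under 0.05 in either arm comparison. Some differences were below 0, down to -0.41 among the isoprenoid genes at 4 h. These are counts, and no test of the lists against each other was made.

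The array medians over genes ran from 5.59 to 5.69, and replicates correlated at 0.9932 to 0.9956 over all genes. Markers were checked against the mammary label: the 5 luminal markers (Krt8, Krt18, Krt19, Epcam, Cdh1) were dim, from 4.06 to 6.06, and 0 of them passed in either arm comparison, while the fibroblast list ran from 6.80 to 12.99. All 5 luminal differences were below 0 at both times, with 2 at an unadjusted limma p under 0.05 at 0 h and 1 at 4 h (22.8% and 22.4% of all genes). Of the 4 basal markers, Krt14 was lower in the plus-titled arm (-1.39, adjusted p = 0.00093 at 0 h, and -1.41, adjusted p = 0.000771 at 4 h) and Acta2 was higher (1.66, adjusted p = 0.0262, and 1.45, adjusted p = 0.0436). Of the 5 fibroblast markers, Pdgfra (0.88, adjusted p = 0.00174) and Pdgfrb (0.52, adjusted p = 0.0298) were higher and Col1a2 (-0.70, adjusted p = 0.00364) was lower at 0 h, and at 4 h Pdgfra (0.59, adjusted p = 0.0123) was higher and Col1a2 (-0.65, adjusted p = 0.00506) lower. Summed on the linear scale, where bright probes weigh most, the 5 fibroblast markers ran from 13357 to 13573 in the no-titled and 10233 to 10767 in the plus-titled arm at 0 h, and from 12708 to 13041 and 9941 to 10255 at 4 h. The 4 basal markers summed to 203 to 235 and 226 to 387 at 0 h, and to 202 to 217 and 192 to 339 at 4 h. The 5 luminal markers summed to 179 to 183 against 155 at 0 h, and to 184 to 190 against 156 to 177 at 4 h. Of the leukocyte, adipocyte, endothelial and hepatocyte or steroidogenic markers, 0 passed in either arm comparison, and 0 had an unadjusted p under 0.05. The part of these markers in the arm differences was not tested.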

How the data were processed

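The deposited table holds log2 expression values made by the authors for 28888 probe sets on 8 arrays; per the submitters' processing notes they used RMA in Affymetrix Expression Console (version: not given in the sources used here). The quantile step of RMA gives every array the same distribution, so a shift shared by most genes cannot be seen, and folds of dim genes are compressed. Of the probe sets, 21789 had exactly 1 gene symbol, 1621 had several and 5478 had none in the annotation used; 21698 symbols were found by gene number in the RefSeq table. The probe set with the highest mean stood for its gene, leaving 19938 genes (999 had several).

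Tests used limma 3.58.1 (R 4.3.3): 1 mean per group over all 8 arrays, lmFit and eBayes, 2-sided, Benjamini-Hochberg over all genes. The fit had 4 residual degrees of freedom and a prior of 6.64 with SD 0.127. The contrasts were the arm difference (plus-titled minus no-titled) at each time, 4 h minus 0 h in each arm, and the difference of these responses. The code was tested on simulated data. The alternatives were other variance models, normalizations, filters and probe set rules, a 2-fold minimum, a replicate block, and leaving out each array.

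All members are described by role; of the other lists, up to 3 called genes with the largest differences could be named. The members and lists were chosen with earlier results of these data known. Promoter letters are RefSeq's, for GRCm38.p6, and the promoters to print were chosen by the strict sterol motif and then by size of the 0 h difference. Replicates are not stated to be separate cultures, and p-values then measure no more than the spread among these samples, which may be technical. The number of arrays limits the precision.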

Additional observations from a re-analysis of the deposited data

How the results depend on the processing

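With 2 arrays per group, the arm counts changed with the array left out. Such a fit also has fewer arrays, and the part of that in the lost calls was not tested. With each array left out in turn, the member median was 0.61 to 0.81 at 0 h and 0.50 to 0.62 at 4 h. Leaving out each array in turn gave 8 to 19 members higher at 0 h (20 with all arrays) and 6 to 17 at 4 h (17 with all), and the called members kept their direction in every such fit. The lone array left in a group is there assumed to vary like the other groups. A 2-fold minimum left 6 members at 0 h and 1 at 4 h, where 0.537% and 0.517% of all genes were called higher. Cyclic loess gave 18 and 16 (5.12% and 5.45% of all genes), and median centring 20 and 17 (6.82% and 4.94%). The 4 arrays of each comparison alone gave 20 and 14 (4.56% and 4.67%). Without the dimmest genes the counts were 21 and 18, and the shares of all genes kept were 15.2% and 12.2%. Pmvk passed at 0 h in 4 of the alternatives, and Srebf2 was not called in 10 of 17 settings at each time. With a variance that follows signal and resists outliers, dexamethasone had 1 member higher in the no-titled arm and 1 lower in the plus-titled arm.

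The replicate numbers are shared across groups but were not found to pair samples over all genes. There the deviations of same-numbered arrays correlated between -0.019 and 0.133 in the 6 pairs of groups. In this set the shift was shared more widely: replicate 2 was higher in all 4 groups for 57.1% of the members, against 8.9% of all genes. With a replicate block, 21 members were higher at 0 h (Pmvk added, 0.54, adjusted p = 0.0295), beside 6.64% of all genes. At 4 h 18 were higher (Insig2 added, 0.39, adjusted p = 0.0414), beside 5.69%. Dexamethasone then had 1 member lower in the no-titled arm (Insig1, -0.63, adjusted p = 0.0284) and 1 lower in the plus-titled arm (Insig1, -0.89, adjusted p = 0.00711). The SE of Insig1 was 0.11 with the block and 0.25 without it.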
